A study of Mus musculus with 10 samples.

Results

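The sperm flagellum and axoneme families are here the genes whose symbol in the deposited tables begins with Dnahc, Dnaic, Dnali, Tekt, Odf, Spag, Catsper, Ttll, Ropn1 or Rsph, and they number 71 of the 36806 genes listed. They fall into 9 families, with 15 axonemal dynein heavy chains, 3 dynein intermediate and light chains, 7 radial spoke genes, 5 tektins, 11 Spag genes, 8 outer dense fibre genes, 2 ropporins, 7 CatSper genes and 13 Ttll genes. The choice was made by name and applied no threshold to a measured value, but earlier results of these data were known when it was made. The tables use older symbols for some of them, so that Dnahc stands for the genes now called Dnah and Spag6 has an ID now named Spag6l. The members lie on 18 chromosomes, with 0 on X and 0 on Y.

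mRNA levels were read by sequencing in male C57BL/6 mice that carried Ago4 (Ago4+/+) or lacked it (Ago4-/-), bred as littermates. Ago4 encodes one of the Argonaute proteins, which are guided to RNA targets by small RNAs. The 8 mRNA libraries comprised, for each genotype, 1 library of pachytene spermatocytes and 1 of leptotene/zygotene spermatocytes from mice aged 70 days, and 1 library of whole testis at day 3 and 1 at day 8. A further 2 libraries of small RNA from pachytene cells, 1 per genotype, were not used here. The number of animals behind a library and the deleted part of Ago4 are not given in the sources used here. The values come from 4 tables, named for day 3, pre-meiotic, leptotene/zygotene and pachytene material, each with 2 conditions that carry a number and no genotype. A pair of values below is given in the order condition 1, condition 2 of its own table, and whether that order means the same genotype in the 4 tables is not known. Which age of whole testis the pre-meiotic table holds was not settled. Levels are in FPKM, fragments scaled to transcript length and to library size, which is a level per length and can be set side by side between genes.

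The axoneme is the motile core of cilia and of the sperm tail, built of microtubule doublets around a central pair. Dynein arms on the doublets slide neighbouring doublets past each other, and radial spokes link the doublets with the central pair. Tektins are filament proteins of the doublet wall, and tubulin tyrosine ligase-like (Ttll) enzymes add glutamate or glycine chains to tubulin. In sperm the axoneme is wrapped by outer dense fibres and a fibrous sheath, and the CatSper complex forms the calcium channel of the tail. Transcription of many of these genes begins in spermatocytes and the flagellum is assembled in spermatids.

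Transcription factors of the RFX family act on many genes of motile cilia, and MYBL1 acts on genes of pachytene spermatocytes. The promoter stretches of 4 members are shown because these genes were at or below 11.6 FPKM in the testis tables and above 100 FPKM in both spermatocyte tables, and because their promoters hold the core RFX motif. Each is 60 bases of RefSeq sequence in GRCm38.p6, written 5′ to 3′ on the gene's strand, and the capitals mark the RFX motif GTTGCC or its reverse complement GGCAAC.
Tekt1: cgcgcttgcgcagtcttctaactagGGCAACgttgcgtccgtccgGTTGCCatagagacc
Tekt2: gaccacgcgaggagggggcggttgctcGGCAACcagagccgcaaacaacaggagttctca
Spag16: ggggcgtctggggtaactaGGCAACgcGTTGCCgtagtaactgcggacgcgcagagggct
Ttll10: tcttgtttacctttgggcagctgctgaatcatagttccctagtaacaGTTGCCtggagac
The Tekt1 stretch is chr11:72361883-72361942 on the minus strand and covers bases 60 to 1 before the annotated start. The Tekt2 stretch is chr4:126325678-126325737 on the minus strand, bases 91 to 32 before the start. The Spag16 stretch is chr1:69826840-69826899 on the plus strand, bases 130 to 71 before the start, and the Ttll10 stretch is chr4:156050818-156050877 on the minus strand, bases 60 to 1 before the start. The 4 genes were chosen for this display after their values and motifs were seen. Spag16, which encodes a central pair protein, is named for this display alone.

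The RFX motif was commoner in the promoter windows of the members than in all windows. Of the 71 members, 56 matched the RefSeq promoter table, with 67 windows that run from 250 bases before a start to 50 bases after it. GTTGCC on either strand was found in 20 of these windows (29.9%), against 12.5% of all 32851 windows of the same length. The MYB motifs TAACNG or CAACNG on either strand were found in 48 windows of members (71.6%) against 49.7% of all windows. The reverse complement of the RFX motif ends in CAAC, so the searches can share letters. These shares describe letters in a window, and windows of a gene with several starts can overlap.

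Ago4, listed as Eif2c4 (ENSMUSG00000042500), was the targeted gene and was present in each of the 8 columns. Its values in condition 1 and condition 2 were 0.897 and 1.23 FPKM at day 3, 2.53 and 3.34 in the pre-meiotic table, 1.68 and 3.26 in the leptotene/zygotene table and 4.37 and 12.2 in the pachytene table. It was higher in condition 2 of the 4 tables, and these values were not used to assign a genotype.

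Summed marker levels went against the name of the leptotene/zygotene table, and spermatid markers were also present in the pachytene table. The summed level of 9 spermatid markers, which include the protamines and transition proteins that pack sperm DNA, was 55260 and 65390 FPKM in the leptotene/zygotene table. It was 8941 and 10960 FPKM in the pachytene table, 78.0 and 76.2 in the pre-meiotic table and 5.07 and 3.81 at day 3, where Smcp was listed at 0. The 7 leptotene and zygotene markers summed to 139 and 119 FPKM in the table named for these stages. Their sums were 221 and 127 in the pre-meiotic table, a range that overlaps. In the pachytene table they were 369 and 365, both higher. By mean level, Sycp3, Sycp1, Spo11, Hormad1 and Meiob were higher at pachytene. Dmc1 and Prdm9 were not, with leptotene/zygotene means 1.16 and 1.22 times the pachytene means (on FPKM + 0.1). The leptotene/zygotene means of Dmc1 and Prdm9 were 0.187 and 0.229 times their pre-meiotic means. The 8 pachytene markers summed to 8555 and 8286 FPKM in the leptotene/zygotene table and to 9164 and 9088 in the pachytene table. Sertoli cell markers (6 of 7 found) summed to 59.1 and 41.0 FPKM in the leptotene/zygotene table and 98.3 and 108 in the pachytene table, against 2263 to 2562 in the testis tables. Of 4 markers of ciliated duct cells, 1 passed 1 FPKM in either spermatocyte table, namely Foxj1, which male germ cells also express, and Foxa1 was listed at 0 in the leptotene/zygotene table. Spermatogonial markers summed to 24.8 to 34.4 FPKM and Leydig cell markers to 12.4 to 42.8 FPKM in the spermatocyte tables. The name leptotene/zygotene is kept below as a label alone, and results across tables are given with it and without it. In these bulk samples, fewer cells of a type and less RNA per cell cannot be told apart.

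The members were low in the testis tables and high in both spermatocyte tables. Their median level was 0.35 FPKM at day 3 and 1.26 in the pre-meiotic table, against 72.7 in the leptotene/zygotene table and 66.0 in the pachytene table. At least 1 FPKM in either condition was reached by 30 members at day 3, 43 in the pre-meiotic table, 65 in the leptotene/zygotene table and 66 in the pachytene table. The medians over those members alone were 5.46, 3.86, 81.7 and 74.3 FPKM in the same order of tables, and over all genes that reached 1 FPKM they were 15.9, 15.4, 8.17 and 10.1 FPKM. Of the 71 members, 34 had their highest level in the pachytene table, 29 in the leptotene/zygotene table, 2 in the pre-meiotic table (Spag9 and Ttll12) and 1 at day 3 (Spag7). The other 5 stayed under 1 FPKM in every column: Dnahc5, Odf3l2, Rsph4a, Spag11a and Spag11b, and Spag11a was listed at 0 throughout. The highest table was not counted for all genes, so these counts have no such share beside them.

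**Figure D1:**
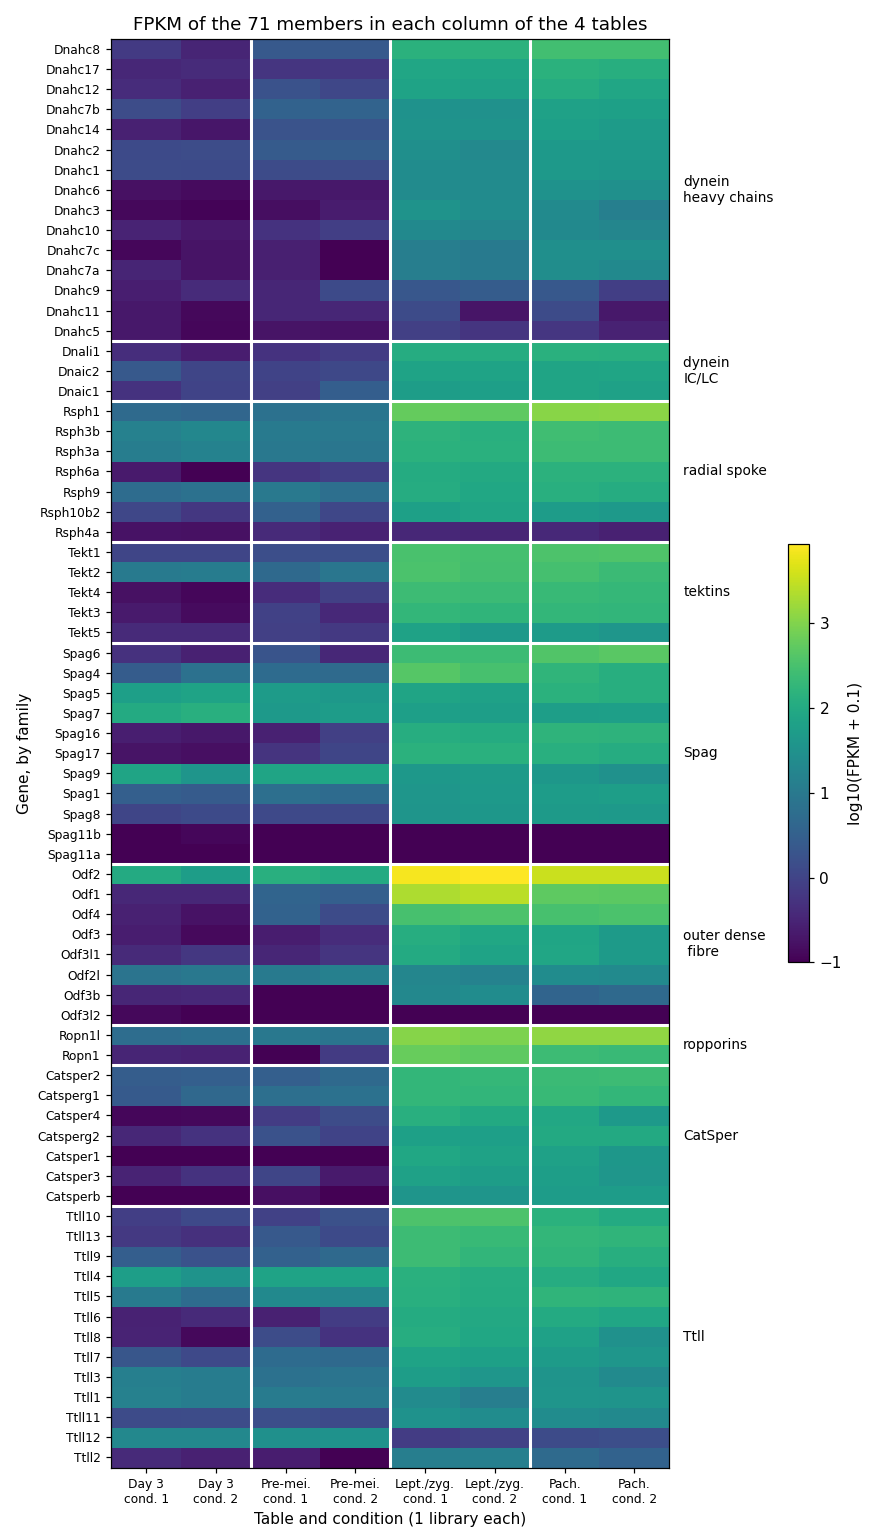
FPKM of the 71 members (rows, grouped by family and ordered by their mean over all columns) in the 2 conditions of each of the 4 tables (columns, 1 library each), as log10(FPKM + 0.1). The right 4 columns are bright for most rows, with member medians of 72.7 and 66.0 FPKM against 0.35 and 1.26 on the left, and Spag5, Spag7, Spag9 and Ttll4 are among the few rows that are already bright at day 3.

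A gene was counted as higher in a later table where its lower value there was at least 2 times its higher value in the earlier table and reached 1 FPKM. From the pre-meiotic to the leptotene/zygotene table this held for 57 of 66 members (86.4%), against 21.9% of all genes, and 1 member (1.52%), Ttll12, was lower, against 46.7% of all genes. Without the leptotene/zygotene table, from the pre-meiotic to the pachytene table, 59 of 66 members were higher (89.4%, against 21.6% of all genes) and 1 was lower (against 41.9% of all genes). From day 3 to the pre-meiotic table, 8 of 43 members were higher (18.6%, against 7.18% of all genes) and 0 were lower (against 12.1% of all genes). The 8 were Dnahc7b, Dnahc8, Dnahc12, Dnahc14, Odf1, Odf4, Ttll7 and Ttll13, with 4 dynein heavy chains among them. Scaling each column to the same total FPKM moved all genes up by 0.68 on the log2 scale in that step. It gave 16 of 45 members higher (35.6%, against 17.1% of all genes). The tables were made separately, so these counts describe levels and carry no test.

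Between the 2 spermatocyte tables few members differed by this rule. At pachytene, 1 of 66 was higher, Dnahc7c (against 9.25% of all genes), and 6 were lower (9.09%, against 6.2% of all genes). The 6 were Odf1, Odf2, Odf3b, Ropn1, Ttll2 and Ttll10. With each column scaled to the same total, which moved all genes up by 0.34 on the log2 scale in this step, 8 members were higher and 3 lower in the pachytene table, against 17.3% and 3.89% of all genes. The spermatid marker sum differed between these tables in the same direction as the 6 lower members. Its part in their levels was not tested.

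**Figure D2:**
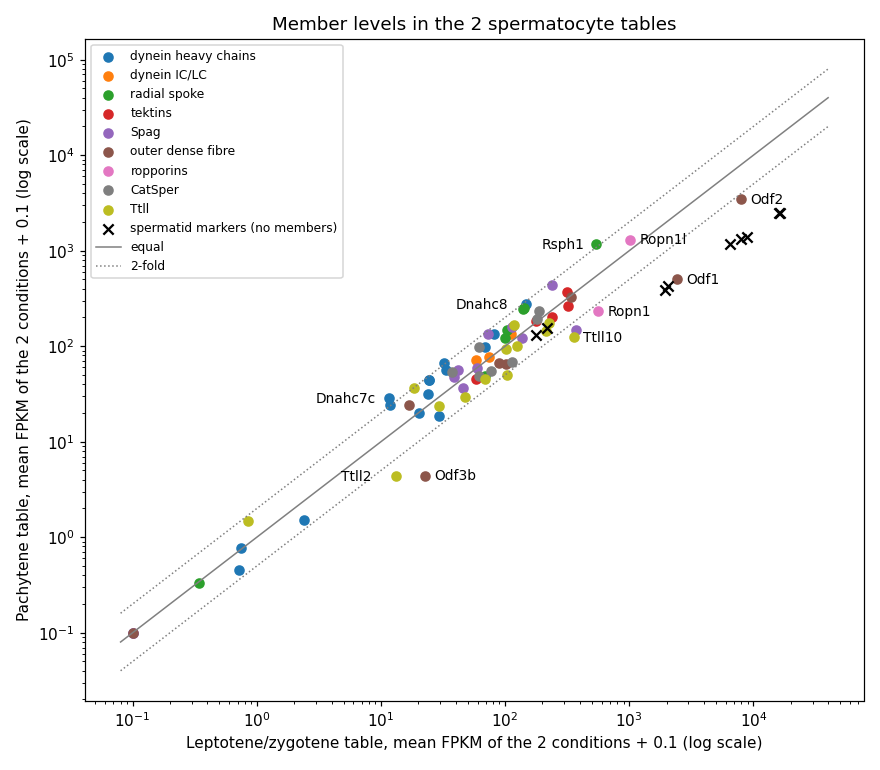
Mean FPKM of the 2 conditions plus 0.1 in the leptotene/zygotene table (horizontal, log scale) and in the pachytene table (vertical, log scale), with 1 point per member coloured by family and crosses for 9 spermatid markers that are no members. Most members lie between the dotted 2-fold lines. By these means Odf1, Odf2, Odf3b, Ropn1, Spag4, Ttll2, Ttll8 and Ttll10 lie below them, as do 7 of the 9 spermatid markers, and Dnahc7a, Dnahc7b, Dnahc7c and Rsph1 lie above.

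Outer dense fibre genes were the most abundant of the 9 families in both spermatocyte tables by their highest member. Odf2, a main protein of the fibres that is also found at centrosomes, was at 103 and 56.2 FPKM at day 3 and 127 and 106 in the pre-meiotic table. It was at 7387 and 8612 FPKM in the leptotene/zygotene table and 3481 and 3414 in the pachytene table. Its level in the leptotene/zygotene table was thus 68.6 times its pre-meiotic level (such multiples are of means on FPKM + 0.1), although it was among the 5 highest members at day 3. Odf1, the other main fibre protein, had no such early level: it was at 0.247 and 0.254 FPKM at day 3, 3.71 and 2.97 in the pre-meiotic table, 2136 and 2706 in the leptotene/zygotene table and 515 and 485 in the pachytene table. Its mean in the leptotene/zygotene table was 4.84 times that in the pachytene table, and Odf2 was 2.32 times as high there. Odf4 did not follow this order, with 319.5 and 358 FPKM in the leptotene/zygotene table and 319.9 and 338 in the pachytene table, and is named after its values were seen.

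Dynein heavy chains, the motor subunits, divided by gene into abundant and nearly silent ones. Dnahc8, an outer arm heavy chain of the sperm tail, was at 0.576 and 0.221 FPKM at day 3 and 2.29 and 2.30 in the pre-meiotic table. It reached 144 and 150 FPKM in the leptotene/zygotene table and 277 and 273 in the pachytene table, the highest level of the family in both. Dnahc17, the other outer arm heavy chain of sperm, was at 0.250 and 0.311 FPKM at day 3, 0.486 and 0.527 in the pre-meiotic table, 84.5 and 78.9 in the leptotene/zygotene table and 143 and 123 in the pachytene table. In the spermatocyte tables the log2 ratio between the conditions lay between -0.22 and 0.06 for these genes, and both were higher in the pachytene table in each condition.

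The outer arm heavy chains known from airway cilia stayed low in the same libraries. Dnahc5 was at 0.105 and 0.0234 FPKM at day 3, 0.0815 and 0.0732 in the pre-meiotic table, 0.760 and 0.469 in the leptotene/zygotene table and 0.494 and 0.203 in the pachytene table. Dnahc9 was at 0.159 and 0.305 FPKM at day 3, 0.242 and 1.17 in the pre-meiotic table, 2.05 and 2.57 in the leptotene/zygotene table and 2.14 and 0.721 in the pachytene table. Dnahc11 was at 0.109 and 0.0276 FPKM at day 3, 0.234 and 0.243 in the pre-meiotic table, 1.22 and 0.0895 in the leptotene/zygotene table and 1.22 and 0.111 in the pachytene table. The lowest spermatocyte value of Dnahc17, 78.9 FPKM, thus lay far above the highest value of these 3 genes, 2.57 FPKM. The radial spoke head genes Rsph4a and Rsph6a, named after their values were seen, divided in the same way: Rsph6a was at 108 and 101 FPKM in the leptotene/zygotene table and 148 and 147 in the pachytene table, while Rsph4a was at most 0.286 FPKM in any column.

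**Figure D3:**
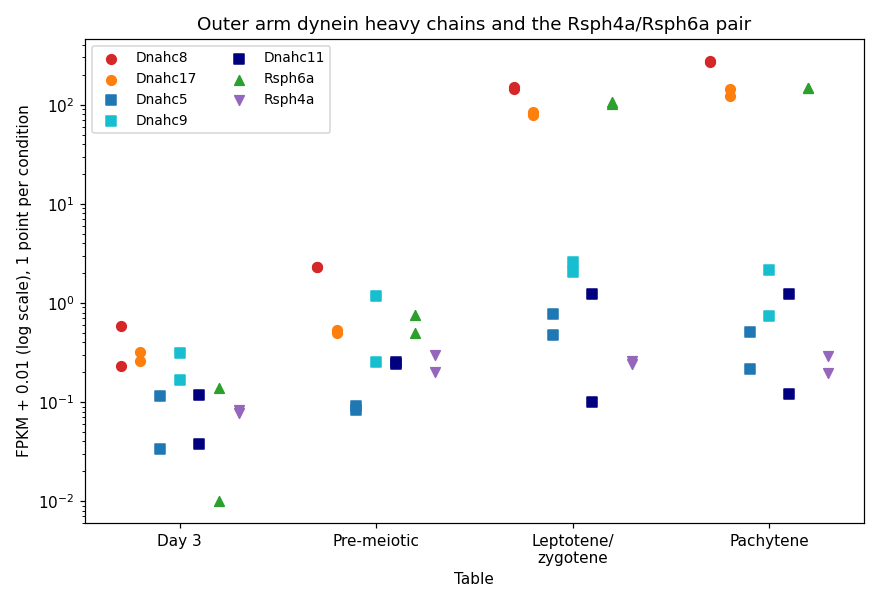
FPKM plus 0.01 (log scale) in the 4 tables, with 1 point per condition, for the outer arm dynein heavy chains Dnahc8 and Dnahc17 (circles), Dnahc5, Dnahc9 and Dnahc11 (squares) and the radial spoke head genes Rsph6a and Rsph4a (triangles). In the spermatocyte tables Dnahc8, Dnahc17 and Rsph6a lie between 78.9 and 277 FPKM and the other 4 genes at or below 2.57 FPKM.

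The remaining dynein genes were all above 10 FPKM in the spermatocyte tables. Dnahc7b, an inner arm heavy chain, was at 1.33 and 0.728 FPKM at day 3, 3.42 and 3.66 in the pre-meiotic table, 33.1 and 31.1 in the leptotene/zygotene table and 67.7 and 64.0 in the pachytene table. Dnahc7a, Dnahc7b and Dnahc7c are near-identical copies, so the division of reads between them is uncertain, and this includes the higher pachytene level of Dnahc7c. Dnaic2, an outer arm intermediate chain, was at 2.30 and 0.984 FPKM at day 3, 0.872 and 1.09 in the pre-meiotic table, 74.3 and 73.4 in the leptotene/zygotene table and 74.8 and 80.7 in the pachytene table. Dnali1, a light chain of inner arms, was at 0.333 and 0.153 FPKM at day 3, 0.436 and 0.659 in the pre-meiotic table, 112 and 111 in the leptotene/zygotene table and 135 and 132 in the pachytene table. Dnaic1, the other outer arm intermediate chain, was at 0.436 and 0.866 FPKM at day 3, 0.774 and 2.87 in the pre-meiotic table, 55.6 and 59.8 in the leptotene/zygotene table and 76.7 and 65.2 in the pachytene table. For the 3 intermediate and light chains the mean level in the leptotene/zygotene table was 30.1 to 173 times the pre-meiotic level.

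Of the 7 radial spoke genes, 5 reached 1 FPKM at day 3, and Rsph1 was among the most abundant members later. The family median was 104 FPKM in the leptotene/zygotene table and 148 in the pachytene table. Rsph1, a spoke head protein, was at 5.01 and 4.08 FPKM at day 3 and 6.76 and 8.06 in the pre-meiotic table, then 576 and 509 in the leptotene/zygotene table and 1132 and 1219 in the pachytene table. Rsph3b, a spoke stalk protein, was at 14.5 and 19.6 FPKM at day 3, 10.3 and 9.60 in the pre-meiotic table, 156 and 130 in the leptotene/zygotene table and 262 and 240 in the pachytene table. Its copy Rsph3a is nearly identical, so the values of each are uncertain. All 6 radial spoke genes that reached 1 FPKM were higher in the leptotene/zygotene than in the pre-meiotic table, and Rsph4a was the one that did not reach it.

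Tektins were nearly absent from the testis tables, apart from Tekt2. Tekt1 was at 0.961 and 0.964 FPKM at day 3, 1.44 and 1.43 in the pre-meiotic table, 326 and 308 in the leptotene/zygotene table and 365 and 378 in the pachytene table. Tekt2 was at 10.9 and 11.6 FPKM at day 3, 4.84 and 8.61 in the pre-meiotic table, 351 and 290.3 in the leptotene/zygotene table and 296 and 229 in the pachytene table. Tekt5 was at 0.279 and 0.295 FPKM at day 3, 0.779 and 0.551 in the pre-meiotic table, 68.5 and 47.7 in the leptotene/zygotene table and 51.9 and 39.7 in the pachytene table. All 5 tektins were higher in both spermatocyte tables than in the pre-meiotic table by the 2-fold rule. In the leptotene/zygotene table all 5, Tekt2 and Tekt5 among them, had the lower value in condition 2 (against 57.4% of all genes). At pachytene 4 of 5 did (80%, against 46.6% of all genes), and Tekt1 was higher.

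The Spag genes share a name, sperm-associated antigen, and not a function, and their levels differed widely. Spag6, a central pair protein, was at 0.416 and 0.189 FPKM at day 3, 1.80 and 0.255 in the pre-meiotic table, 237 and 245 in the leptotene/zygotene table and 396 and 478 in the pachytene table. Spag4, a SUN domain protein of the nuclear envelope in sperm development, was at 2.65 and 6.85 FPKM at day 3, 5.17 and 5.02 in the pre-meiotic table, 428 and 313 in the leptotene/zygotene table and 172 and 127 in the pachytene table. Spag5, a protein of the mitotic spindle, was already at 61.8 and 74.4 FPKM at day 3 and stood at 52.1 and 43.5 in the pre-meiotic table, 77.8 and 67.5 in the leptotene/zygotene table and 145 and 121 in the pachytene table.

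Spag7 and Spag9 were high at day 3 and did not gain in the spermatocyte tables. Spag7 was at 102 and 133 FPKM at day 3, 46.4 and 52.4 in the pre-meiotic table, 59.96 and 59.59 in the leptotene/zygotene table and 59.01 and 60.05 in the pachytene table. Spag9, a scaffold protein of JNK signalling, was at 76.9 and 37.7 FPKM at day 3, 76.7 and 81.1 in the pre-meiotic table, 43.0 and 48.0 in the leptotene/zygotene table and 40.6 and 31.8 in the pachytene table. The authors marked their day 3 test of Spag9 as failed. Spag11a and Spag11b, known from the epididymis, did not reach 0.1 FPKM in any column.

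The ropporins, which bind anchoring proteins of the fibrous sheath, differed in where they were highest. Ropn1l was at 5.69 and 6.65 FPKM at day 3, 9.36 and 8.17 in the pre-meiotic table, 1092 and 935 in the leptotene/zygotene table and 1296 and 1314 in the pachytene table. Ropn1 was at 0.224 and 0.195 FPKM at day 3, at 0 and 0.628 in the pre-meiotic table, at 601 and 525 in the leptotene/zygotene table and at 244 and 224 in the pachytene table. Ropn1 was thus 2.40 times as high in the leptotene/zygotene as in the pachytene table, whereas the pachytene mean of Ropn1l was 1.29 times its leptotene/zygotene mean.

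CatSper genes, for the pore and auxiliary subunits of the sperm calcium channel, lay between 36.8 and 238 FPKM in the spermatocyte tables. Catsper2, a pore subunit, was at 2.73 and 3.04 FPKM at day 3, 2.98 and 4.74 in the pre-meiotic table, 184 and 194 in the leptotene/zygotene table and 232 and 238 in the pachytene table. The tables list it in 1 locus with Pdia3, and where 2 genes of a locus overlap, their reads cannot be told apart by strand. Catsperg1, an auxiliary subunit with the near-identical copy Catsperg2, was at 2.35 and 4.53 FPKM at day 3, 6.34 and 6.91 in the pre-meiotic table, 182 and 180.1 in the leptotene/zygotene table and 207 and 182 in the pachytene table. Catsper4, another pore subunit, was at 0.0215 and 0.0252 FPKM at day 3, 0.644 and 1.32 in the pre-meiotic table, 129 and 98.9 in the leptotene/zygotene table and 91.4 and 45.6 in the pachytene table. Its 2 pachytene conditions were thus farther apart than those of Catsper2 or Catsperg1. Of the 7 CatSper genes, 5 were lower in condition 2 at pachytene and 2 were higher. Among the lower ones were Catsper1, at 68.0 and 40.6 FPKM, and Catsper3, at 58.0 and 38.5, both named after their values were seen. Catsper1 was listed at 0 in both testis tables.

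The Ttll genes were highest in the leptotene/zygotene table more often than in the pachytene table, in 10 of 13 against 2 of 13, and Ttll12 was highest in the pre-meiotic table. Over all 71 members these counts were 29 and 34, and the highest table was not counted for all genes. The glycylase Ttll10 was at 0.707 and 1.11 FPKM at day 3, 0.818 and 1.58 in the pre-meiotic table, 363 and 356 in the leptotene/zygotene table and 144 and 104 in the pachytene table. The glutamylase Ttll13 was at 0.550 and 0.385 FPKM at day 3, 2.28 and 1.16 in the pre-meiotic table, 241 and 212 in the leptotene/zygotene table and 186 and 167 in the pachytene table. Ttll12 ran against the rest, at 19.9 and 19.9 FPKM at day 3 and 29.6 and 32.6 in the pre-meiotic table against 0.668 and 0.835 in the leptotene/zygotene table and 1.26 and 1.47 in the pachytene table. It was named as the one member that was lower in the spermatocyte than in the pre-meiotic table by the 2-fold rule, which 2 members met with equal totals.

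Several glutamylases already had a level in the testis tables. Ttll4 was at 58.5 and 34.2 FPKM at day 3, 73.1 and 71.3 in the pre-meiotic table, 134 and 114 in the leptotene/zygotene table and 116 and 86.3 in the pachytene table. Ttll5 was at 10.9 and 5.58 FPKM at day 3, 22.1 and 18.1 in the pre-meiotic table, 127 and 108 in the leptotene/zygotene table and 167 and 163 in the pachytene table. Ttll1 was at 14.4 and 11.8 FPKM at day 3, 11.4 and 9.88 in the pre-meiotic table, 24.1 and 13.0 in the leptotene/zygotene table and 37.5 and 35.5 in the pachytene table. Their spermatocyte levels were less far above the testis levels than those of Ttll10 or Ttll13. Ttll7 was at 2.02 and 1.15 FPKM at day 3, 5.23 and 4.80 in the pre-meiotic table, 73.0 and 64.1 in the leptotene/zygotene table and 51.1 and 38.5 in the pachytene table.

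Differences between the 2 conditions of a table were small for most members. The log2 ratio was taken as condition 2 over condition 1 after adding 0.1 to each FPKM, which understates the difference of low genes. Its median over members at 1 FPKM or more was 0.04 at day 3 (30 members), -0.01 in the pre-meiotic table (43), -0.12 in the leptotene/zygotene table (65) and -0.15 in the pachytene table (66). The medians over all genes at that level were 0.05, -0.01, -0.07 and 0.03. At pachytene, 53 of 66 members (80.3%) were lower in condition 2, against 46.6% of all genes, and the same held in the leptotene/zygotene table for 50 of 65 (76.9%), against 57.4%. At day 3 the share was 46.7% for members and for all genes.

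These shares moved with the scaling of the columns. With each column divided by its upper quartile, the pachytene share was 97.0% of members against 69.4% of all genes, and the leptotene/zygotene share 50.8% against 45.8%. With each column scaled to the same total, the shares were 65.2% against 39.4% at pachytene, 83.1% against 64.2% in the leptotene/zygotene table and 80.0% against 73.6% at day 3. The shift of all genes was -0.22 (pachytene) and 0.11 (leptotene/zygotene) on the log2 scale with the upper quartile, and -0.37 at day 3 with equal totals. In the pre-meiotic table and both spermatocyte tables, the share of members lay above that of all genes under the 3 scalings. The shares in the pre-meiotic table were close, at 53.5% against 51.2% before scaling.

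**Figure D4:**
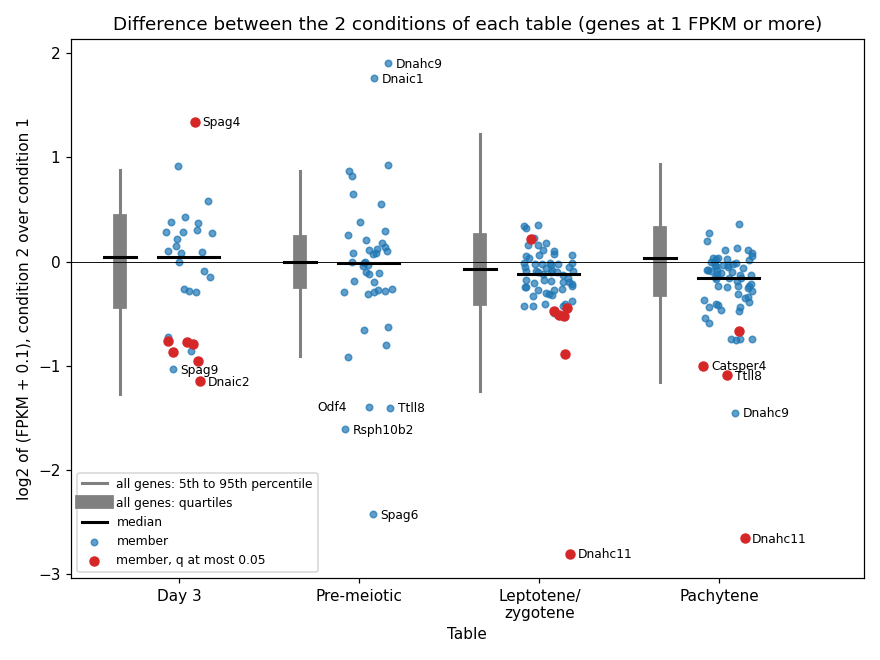
Log2 ratio of FPKM + 0.1, condition 2 over condition 1, in each table (vertical axis), for the members at 1 FPKM or more (points, red for a q-value of at most 0.05 from the authors) and for all genes at that level (grey bars, thick for the quartiles and thin for the 5th to 95th percentile; black lines are medians). In the spermatocyte tables most members lie within 1 of 0, with medians of -0.12 and -0.15, and Dnahc11 lies lowest at -2.80 and -2.65.

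With 1 library per genotype and material there is no replicate, so no difference could be tested against the spread between animals. The q-values come from the authors' Cuffdiff test, which compares 2 libraries. The implied error given below is the size of a log2 ratio divided by the size of the authors' test statistic. That log2 ratio was taken without the added 0.1, so for low genes it is larger than the ratio printed beside the error. The implied error stands for the error within the authors' test. A gene is called here where the q-value in the authors' deposited table is at most 0.05.

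At pachytene 4 of 67 tested members were called lower in condition 2 (5.97%, against 1.01% of all tested genes) and 0 higher (against 0.614%). They were the glycylases Ttll8 and Ttll3, the channel subunit Catsper4 and the dynein Dnahc11. Ttll8, which starts glycine chains on tubulin, was at 0.205 and 0.0261 FPKM at day 3, 1.31 and 0.433 in the pre-meiotic table, 121 and 85.2 in the leptotene/zygotene table and 67.4 and 31.6 in the pachytene table. It was lower in condition 2 of the 4 tables, and its log2 ratio at pachytene was -1.09 (implied error 0.17, q = 2.12e-07 in the authors' deposited table). Ttll3, the other enzyme that starts glycine chains, was at 13.3 and 12.0 FPKM at day 3, 6.71 and 7.78 in the pre-meiotic table, 55.4 and 39.9 in the leptotene/zygotene table and 36.5 and 22.8 in the pachytene table. Its log2 ratio at pachytene was -0.67 (implied error 0.18, q = 0.0186 in the authors' deposited table), and that of Catsper4 was -1.003 (implied error 0.25, q = 0.00919 in the authors' deposited table). Ttll10, which lengthens glycine chains, had a log2 ratio of -0.47 (implied error 0.20, q = 0.278 in the authors' deposited table), which misses the threshold. Uncalled members of other families came closer to it, among them Dnahc3 (q = 0.0505 in the authors' deposited table) and Tekt2 (q = 0.0739).

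By size alone, 4 of 66 members were past 2-fold lower in condition 2 at pachytene (6.06%, against 6.17% of all genes) and 0 were past 2-fold higher (against 4.48%). They were Catsper4, Dnahc9, Dnahc11 and Ttll8, a share near that of all genes. Spermatid markers did not move together in that table: 3 of 9 were lower in condition 2 and 6 higher. The acrosomal gene Acrv1 was at 197 and 116 FPKM and Spaca1 at 151 and 114, while Prm1 was at 1074 and 1712 and Prm2 at 1989 and 2950. The part of these differences in the members' ratios was not tested.

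Of 67 members tested in the leptotene/zygotene table, 6 were called lower in condition 2 (8.96%, against 1.33% of all tested genes) and 1 higher (1.49%, against 0.804%). Ttll8 was lower with a log2 ratio of -0.51 (implied error 0.11, q = 0.000457 in the authors' deposited table), and Ttll3 with -0.47 (implied error 0.13, q = 0.0165 in the authors' deposited table). Spag4 had a log2 ratio of -0.45 (implied error 0.11, q = 0.0033 in the authors' deposited table), Tekt5 of -0.52 (implied error 0.14, q = 0.0165) and Ttll1 of -0.89 (implied error 0.27, q = 0.0439). Both glycylases that start chains were thus called lower in condition 2 of both spermatocyte tables. The direction was not particular to them. Of the Ttll genes at 1 FPKM or more, 12 of 13 were lower in condition 2 at pachytene (median log2 ratio -0.41). In the leptotene/zygotene table this held for 11 of 12 (median -0.24). The lower ones at pachytene included the glutamylases Ttll4 (-0.42) and Ttll7 (-0.41), which were not called there. Odf2 was higher by 0.22 (implied error 0.06, q = 0.00897 in the authors' deposited table), and Odf1, at 0.34 (implied error 0.18), was not called. Of 9 spermatid markers, 7 were higher in condition 2 of that table and 2 were lower, and the part of this in the ratio of Odf2 was not tested. Past 2-fold, 1 of 65 members was lower (1.54%, against 7.39% of all genes), namely Dnahc11, and 0 were higher (against 6.36%).

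Dnahc11 had the lowest ratio in both spermatocyte tables, from values near 1 FPKM. Its log2 ratio was -2.80 in the leptotene/zygotene table (implied error 0.59, q = 1.36e-07 in the authors' deposited table) and -2.65 at pachytene (implied error 0.55, q = 2.16e-07 in the authors' deposited table). The tables list it in 1 locus on chromosome 12 with Cdca7l, which was at 1.37 and 6.81 FPKM in the leptotene/zygotene table and 1.52 and 10.5 at pachytene, the opposite direction. Whether reads were shared between these genes was not tested. Ttll3 is listed in 1 locus with Arpc4, which was at 12.0 and 12.4 FPKM in the leptotene/zygotene table and 17.9 and 20.5 at pachytene. The loci of Ttll8, Catsper4, Spag4 and Tekt5 overlap no other gene in the tables, whereas 29 of the 71 members have a locus that is shared with or overlaps that of another gene.

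At day 3, 9 of 63 tested members were called lower in condition 2 (14.3%, against 9.97% of all tested genes) and 1 higher (1.59%, against 4.8%). The lower ones were the glutamylases Ttll4, Ttll5 and Ttll7, Odf2, Dnaic2 and the dyneins Dnahc5, Dnahc7b, Dnahc8 and Dnahc11. Ttll5 had a log2 ratio of -0.95 (implied error 0.15, q = 4.54e-09 in the authors' deposited table), Odf2 of -0.87 (implied error 0.13, q = 8e-09) and Ttll4 of -0.77 (implied error 0.12, q = 4.19e-08). The ratio of Dnaic2 was -1.15 (implied error 0.44, q = 0.0371 in the authors' deposited table), that of Ttll7 -0.76 (implied error 0.27, q = 0.0199) and that of Dnahc7b -0.79 (implied error 0.31, q = 0.0331). Dnahc5, Dnahc8 and Dnahc11 were under 1 FPKM in both conditions, with ratios of -0.73, -1.07 and -0.71 and q-values of 0.000736, 0.000296 and 0.00339 in the authors' deposited table.

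Spag4 was the member called higher at day 3, with a log2 ratio of 1.34 (implied error 0.34, q = 0.000961 in the authors' deposited table), the opposite direction to its ratio in the leptotene/zygotene table. Whether condition 2 is the same genotype in both tables is not known, and the difference was not tested. Past 2-fold at day 3, 1 of 30 members was higher (3.33%, against 3.8% of all genes) and 2 were lower, Dnaic2 and Spag9 (6.67%, against 7.78%). Of 7 spermatogonial markers at day 3, 6 were lower in condition 2, and their sums were 174 and 146 FPKM. The 6 Sertoli markers summed to 2423 and 2562 FPKM, with 4 lower. The part of these differences in the members' ratios was not tested.

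Of 57 members tested in the pre-meiotic table, 0 were called in either direction, against 0.471% of all tested genes higher and 0.68% lower. Past 2-fold, 2 of 43 members were higher in condition 2, Dnahc9 and Dnaic1 (4.65%, against 4.21% of all genes), and 4 were lower, Odf4, Rsph10b2, Spag6 and Ttll8 (9.30%, against 4.49%). These differences lay in low values. The log2 ratio of Spag6 was -2.42 (implied error 1.3), that of Dnahc9 1.90 (implied error 1.49) and that of Dnaic1 1.76 (implied error 1.53), and none of the 3 had a q-value in the authors' deposited table below 0.404.

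Other genes of the flagellum and of motile cilia, a list of 66 regulators, assembly factors, sheath proteins, ion transporters and ciliary transport genes, had a like pattern of levels. From the pre-meiotic to the leptotene/zygotene material, 55 of 66 were higher (83.3%, against 21.9% of all genes) and 1, the transport gene Ift20, was lower (against 46.7%). From the pre-meiotic to the pachytene material, 61 of 66 were higher (92.4%, against 21.6% of all genes) and 0 lower (against 41.9%). Rfx2, a regulator of ciliary and spermatid genes, was at 6.60 and 5.72 FPKM at day 3, 4.02 and 3.26 in the pre-meiotic table, 145 and 136 in the leptotene/zygotene table and 159.9 and 136 in the pachytene table. Mybl1 was at 16.5 and 10.4 FPKM at day 3, 15.2 and 12.8 in the pre-meiotic table, 23.7 and 20.8 in the leptotene/zygotene table and 56.0 and 50.4 in the pachytene table. Foxj1, a regulator of motile cilia, was at 0.900 and 1.03 FPKM at day 3, 0.519 and 0.758 in the pre-meiotic table, 42.6 and 36.0 in the leptotene/zygotene table and 30.7 and 20.9 in the pachytene table. Rfx2 and Foxj1 were thus low in the testis tables and high in both spermatocyte tables like most members, and Mybl1 was highest at pachytene.

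Between the spermatocyte tables, 7 of the 66 genes were higher at pachytene (10.6%, against 9.25% of all genes) and 10 lower (15.2%, against 6.2%). The lower ones included the fibrous sheath genes Akap4, Fscb, Gapdhs and Tcp11 and the mitochondrial sheath gene Smcp, and Akap4, Gapdhs and Smcp are also on the list of spermatid markers. Akap4 was at 1850 and 2246 FPKM in the leptotene/zygotene table and 409 and 451 at pachytene, and Smcp at 5900 and 7065 against 1236 and 1121. The higher ones included the dynein assembly factors Dyx1c1 and Zmynd10. Zmynd10 was at 150 and 121 FPKM in the leptotene/zygotene table and 329 and 311 at pachytene.

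Between conditions, 5 of 65 tested genes of this list were called lower in condition 2 at pachytene (7.69%, against 1.01% of all tested genes) and 0 higher (against 0.614%). They were the fibrous sheath gene Fsip2, the ruler gene Ccdc39, the kinesin Kif17, the regulator Sox5 and the neck gene Sun5. Fsip2 was at 150.3 and 128 FPKM in the leptotene/zygotene table and 125 and 32.6 at pachytene, a log2 ratio of -1.93 at pachytene (implied error 0.16), the lowest of the list, with a q-value of 0 in the authors' deposited table. None of the 66 genes tested in the leptotene/zygotene table and none of the 60 tested in the pre-meiotic table was called. At day 3, 6 of 59 were called lower, among them the transport genes Ift80, Ift88, Ift140 and Kif3a (10.2%), and 4 higher (6.78%), shares near or little above the 9.97% and 4.8% of all tested genes. The list's median log2 ratio was -0.02 at day 3, -0.12 in the pre-meiotic table, -0.05 in the leptotene/zygotene table and -0.08 at pachytene. Of its genes at 1 FPKM or more, 54.5%, 67.3%, 57.6% and 62.1% were lower in condition 2, in the same order of tables. The shares of all genes were 46.7%, 51.2%, 57.4% and 46.6%.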

How the data were processed

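Total RNA was extracted with Trizol, and the mRNA libraries came from an Illumina TruSeq kit; per the labels, no strand-keeping step is named, so antisense reads cannot be separated. The submitters' processing notes list TopHat 1.3.0, Cufflinks 1.1.0, Cuffdiff and Bowtie 0.12.7. No source used here names the genome build. Per the file headers, the authors deposited an FPKM value per gene and condition, a test statistic, which is a score, and a q-value. The deposited log2 fold column was not used. Read depth is unknown, so no counting interval is given.

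From the FPKM values, log2 ratios were computed within each table with a pseudocount of 0.1 (Python 3.11.15, pandas 2.3.3, numpy 2.4.6), and the scripts were tested on simulated data. Ratios were described where the larger FPKM was at least 1. Alternatives were q-value thresholds, pseudocounts, floors, column scalings, single columns and fold sizes. The members, lists and rules were chosen with earlier results of these data known. Named genes were, per family, the 2 highest over all columns, every called member, the 3 largest ratios per table and the 5 highest at day 3. The tables name conditions only by number, so no genotype was attached. Motifs were searched as letters in RefSeq promoter windows (GRCm38.p6), and 69 of the 71 gene IDs matched a current symbol. The small RNA libraries were not analysed here.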

Additional observations from a re-analysis of the deposited data

How the results depend on the processing

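Of 96 recomputed counts and medians over members, 68 kept within 1.5 times the count or within an interval for the median. That interval was read from the ranked ratios of the members by a binomial rule. It treats genes as independent and does not measure the spread between animals. The median at day 3 became -0.137 with no floor, and no ratio of a called member changed sign. With q at most 0.01, 4 members were called in the leptotene/zygotene table, and with q at most 0.1, 7 at pachytene. Past 2-fold, a pseudocount of 1 gave 3 members in the pre-meiotic and 2 in the pachytene table, a floor of 5 FPKM gave 0 in the pre-meiotic, 0 in the leptotene/zygotene and 2 in the pachytene table, and no floor gave 6 at day 3 and 15 in the pre-meiotic table. Upper quartile scaling moved the members' median log2 ratio to 0.001 in the leptotene/zygotene table and to -0.370 at pachytene. It gave 1 of 41 members lower in the pre-meiotic than in the day 3 table (2.44%, against 14% of all genes). With equal totals, 16 of 45 members were higher in the pre-meiotic than in the day 3 table (35.6%, against 17.1% of all genes). At pachytene against the leptotene/zygotene table, 8 of 66 were higher (12.1%, against 17.3%) and 3 lower (4.55%, against 3.89%). Against the pre-meiotic table, 2 of 66 were lower in either spermatocyte table (3.03%). The shares of all genes were 52.1% (leptotene/zygotene) and 43.5% (pachytene). With a 4-fold rule, 3 members were higher in the pre-meiotic than in the day 3 table, and 0 higher and 2 lower at pachytene than in the leptotene/zygotene table. First columns alone gave 16 higher and 3 lower in the pre-meiotic than in the day 3 table, and 3 higher at pachytene than in the leptotene/zygotene table. Second columns alone gave 17 higher and 2 lower in the first of these steps, 6 higher and 10 lower in the second, and 2 lower at pachytene than in the pre-meiotic table. Outside the column scalings, the share of all genes was not computed at these settings, so these counts are not read against it. The cause of these moves was not tested. With another floor, fewer or more genes are counted by the rule itself. Some of these alternatives, namely the pre-meiotic to pachytene step, the rows without failed tests and the other settings for lower members, were chosen after seeing the data. Among ratios of called members, 12 of 42 moved by more than the implied error and kept their direction. No replicate could be left out, since each condition is 1 library. No paired analysis was possible because each genotype has 1 library per material.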
